A study of Mus musculus with 8 samples.

Results

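Human chromosome 21 has its mouse counterparts on 3 chromosomes, and in Ts1Cje mice only a stretch of those on chromosome 16 is present in 3 copies. The genes described here are 42 counterparts on chromosomes 10 and 17 that keep 2 copies in both genotypes: 28 lie on chromosome 10, from Prmt2 to Pdxk, and 14 on chromosome 17, from Umodl1 to Rrp1b. The list was drawn up by location and symbol, with earlier results of these data known. It leaves out other counterparts within these blocks, Cbs, Rsph1 and Pcbp3 among them. Its members are measured by the non-control probes whose RefSeq accession belongs to one of the 42 symbols. All 42 were found, on 54 of the array's 55681 probes, while the whole array names 20660 symbols.

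Hippocampal RNA of 3-month-old C57BL6/J mice was measured on 8 one-colour arrays, with 4 Ts1Cje mice and 4 littermates of wild-type genotype, and each label names a separate replicate. Ts1Cje models Down syndrome and carries an extra copy of distal chromosome 16 from Sod1 onwards, with 1 of its Sod1 copies disrupted. The translocation that holds the extra copy has also removed the distal end of 1 chromosome 12, and wild-type littermates carry none of these changes. Sex is not stated in the labels. Whole hippocampus mixes neurons, glia, vessels and blood, so that fewer cells of a type and less RNA per cell cannot be told apart. Of 12 neuronal markers, 12 were measured above background.

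In people with Down syndrome the genes on these chromosome 10 and 17 blocks are present in 3 copies, whereas Ts1Cje leaves them at 2. They have no common function. They include chains of collagen VI and collagen XVIII, the astrocyte calcium-binding protein S100B, the RNA-editing enzyme ADAR2 (Adarb1), the reduced folate carrier (Slc19a1), the cathepsin inhibitor cystatin B (Cstb), nucleolar proteins of ribosome assembly, and leukocyte genes such as the integrin chain Itgb2.

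The share of probes with signal well above background was 59.9% to 63.1% per array, and 24022 features passed the filter and were tested. Levels are log2 of the background-corrected signal with each array's own 75th percentile set to 0. A level below 0 may still be well above background. Differences are Ts1Cje minus wild-type on this log2 scale, from limma fitted to all features, with its standard error (SE) and its moderated 95% interval. All 8 arrays shared 1 slide. Row 1 of the slide held replicates 1 and 2 of both genotypes and row 2 held replicates 3 and 4, while Ts1Cje and wild-type arrays lay in different slide columns, and the effects of column and of genotype cannot be told apart.

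None of the members passed the test: 0 of the 37 tested members had an adjusted p under 0.05 (limma, Benjamini-Hochberg over all features), where 0.196% of all features did (0.175% higher and 0.0208% lower in Ts1Cje). The lowest adjusted p among them was 0.375, for the kinase gene Sik1. An unadjusted p under 0.05 was found for 6 of the 37, 3 higher and 3 lower in Ts1Cje, against 8.73% of all features (4.15% higher and 4.57% lower). The groups of arrays did not overlap for 4 members, 2 higher and 2 lower, against 6.12% of all features. Of the 37, 16 stood above 0 and 21 below, their median was -0.02, and 22 lay within 0.1 of 0 on the log2 scale. For all features the median was -0.01.

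The width of the intervals shows what these arrays could resolve. The 95% interval reached 0.17 to either side of the estimate for the median member on the log2 scale, from 0.10 for the PTTG1-binding protein gene Pttg1ip to 0.52 for the collagen VI gene Col6a2. The intervals of 31 of 37 members held 0, as did 91.3% of the intervals of all features. Those of 36 members lay wholly below 0.58, the log2 of 3 copies over 2. So did the intervals of 21682 of all 24022 features, and of 14 of 60 tested 3-copy counterparts on chromosome 16. Among the members the exception was Umodl1, whose interval held both the 3-copy ratio and values near 0.1.

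**Figure D1:**
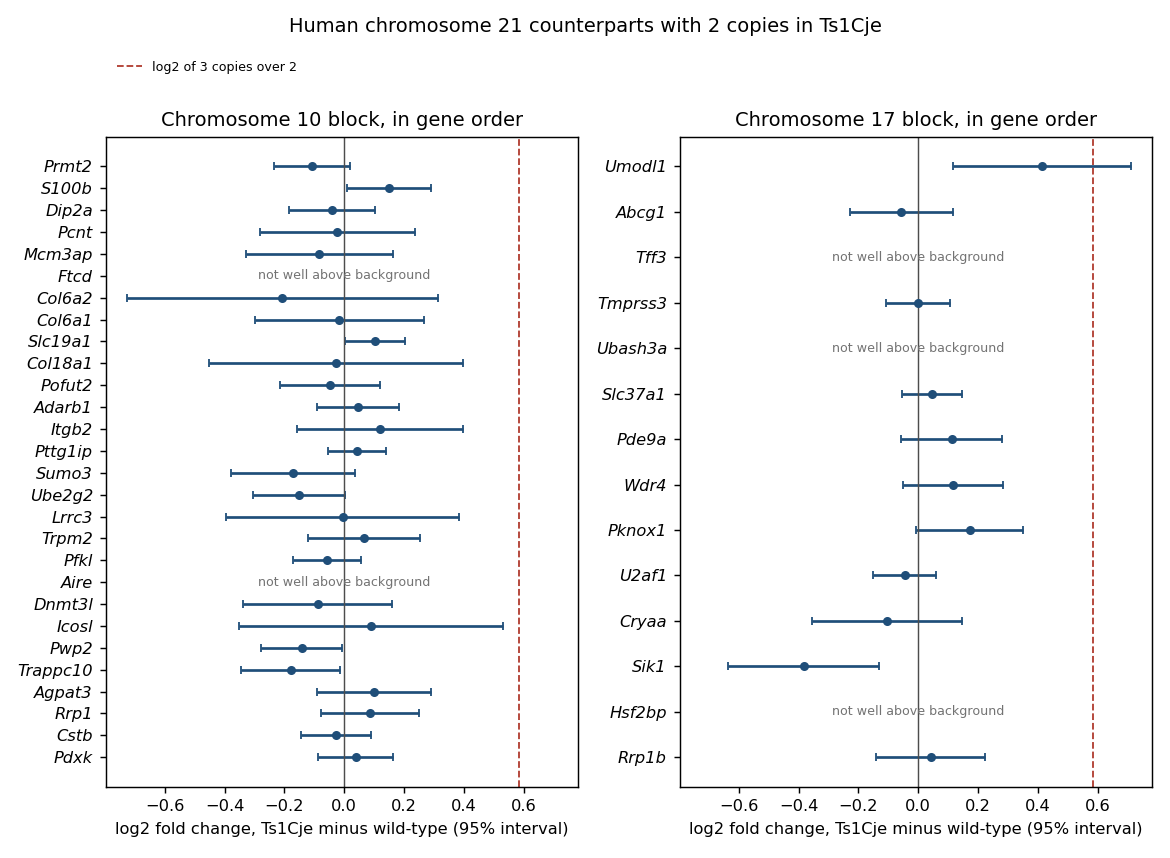
Log2 fold change (horizontal axis, Ts1Cje minus wild-type) with its 95% interval for every member in gene order along chromosome 10 (left) and chromosome 17 (right), 4 arrays per genotype. The dashed line marks 0.58, the log2 of 3 copies over 2. Of the members' intervals, 36 of 37 end below it, as do those of 21682 of all 24022 features. The other 5 members were not well above background.

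Of the 3-copy counterparts on chromosome 16, most had positive values. Of 60 tested genes of a list from Sod1 to Zbtb21, 58 stood above 0 and 26 passed the test, all 26 of them higher in Ts1Cje, with a median of 0.49. Leaving out 1 array moved the median no further than 0.49 to 0.51, but the count of 26 to between 7 (without Ts1Cje replicate 4) and 24. Leaving out Ts1Cje replicate 2 gave 11 and replicate 3 gave 14, and among wild-type arrays leaving out replicate 2 gave 17 and replicate 4 gave 13. The medians of the 2-copy blocks were -0.03 on chromosome 10 and 0.04 on chromosome 17. No test was made of one list against another.

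**Figure D2:**
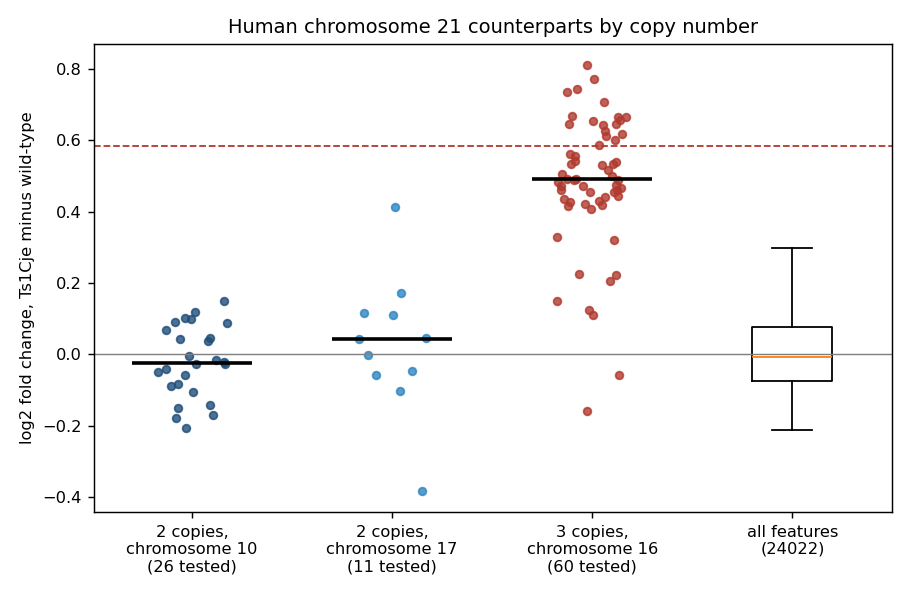
Log2 fold change (vertical axis, Ts1Cje minus wild-type) of each tested gene in the chromosome 10 block, the chromosome 17 block and the triplicated part of chromosome 16, with the median as a bar; the box for all 24022 features spans the middle quartiles with whiskers from the 5th to the 95th percentile. The medians are -0.03, 0.04 and 0.49, and the dashed line marks 0.58.

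In hippocampus 5 members could not be measured by these probes, and the other 37 were each well above background on all 8 arrays with at least 1 probe. The 5 were Ftcd, an enzyme of histidine and folate metabolism known mainly from liver, Aire, the regulator of self-antigen expression in the thymus, Tff3, a secreted trefoil peptide of mucosal surfaces, Ubash3a, a brake on T-cell receptor signalling, and Hsf2bp, a gene of meiotic recombination. Ftcd, Tff3, Ubash3a and Hsf2bp, each with 1 probe, were well above background on 0 of 8 arrays. Aire has 2 probes, one above background on 0 arrays and the other on 1 wild-type array (replicate 2, -1.56, where the other 7 arrays ranged from -6.31 to -4.82). No fold is given for these 5 genes. Tmprss3, a membrane serine protease needed for hearing, and Cryaa, the lens chaperone alpha-A-crystallin, each had 1 probe above background on all 8 arrays. The other probe of Tmprss3 was above background on 1 Ts1Cje array and 0 wild-type arrays. The other probe of Cryaa was above background on 0 of 8 arrays.

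No member of the chromosome 10 block passed the test. Its 26 tested members ranged from -0.21 (Col6a2) to 0.15 (S100b), 10 stood above 0 and 16 below, and 17 lay within 0.1 of 0. Between the members, 18 other named genes of the block were tested, none passed, and their median was 0.02. The one with an unadjusted p under 0.05 was Pcbp3, a poly(C)-binding protein gene, at 0.16 (SE 0.04, limma adjusted p = 0.342), with Ts1Cje arrays all above wild-type arrays. The 20 tested genes nearest the block, 10 on either side, had a median of 0.02 with none past the threshold.

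The chromosome 17 block held the members that stood furthest from 0 in both directions. Its 11 tested members ranged from -0.38 (Sik1) to 0.41 (Umodl1), 6 stood above 0 and 5 below, and 5 lay within 0.1 of 0. The other 3 tested genes within it included Cbs, which encodes cystathionine beta-synthase, the first enzyme of the transsulfuration pathway. Cbs averaged 2.79 ± 0.17 in Ts1Cje and 3.45 ± 0.17 in wild-type arrays (SD, n = 4 each), a difference of -0.67 (SE 0.11, limma adjusted p = 0.076) with no overlap between the groups. Rsph1, a radial spoke gene of motile cilia, stood at -0.37 (SE 0.11, adjusted p = 0.43), also without overlap, and Ndufv3, a subunit gene of respiratory complex I, stood at 0.04 (SE 0.06). Of 7 tested ependymal markers, 6 stood below 0 with a median of -0.21, and their mean level ranged from -1.20 to -0.95 in Ts1Cje arrays and from -1.03 to -0.70 in wild-type arrays. Their part in the value of Rsph1 was not tested. The 20 nearest genes outside the block had a median of 0.05, with none past the threshold. Over both blocks, 9 chromosome 21 counterparts outside the 42 were tested, none passed, and besides Cbs, Rsph1 and Pcbp3 they ranged from -0.0018 (Ybey) to 0.19 (Spatc1l), with Lss, Gatd3a, Cfap410 and Ndufv3 between.

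Among the members that act in transcription, chromatin and signalling, Sik1 had the lowest value of all 37. Sik1 encodes salt-inducible kinase 1, which phosphorylates the CRTC coactivators of CREB and is itself induced by CREB. It stood at -2.18, -2.09, -2.37 and -2.25 in Ts1Cje replicates 1 to 4, against -1.67, -1.66, -1.98 and -2.06 in wild-type replicates 1 to 4. All 4 Ts1Cje arrays lay below all 4 wild-type arrays. The difference was 0.77-fold (log2 -0.38, SE 0.11, 95% interval -0.63 to -0.13, limma adjusted p = 0.375), and its adjusted p ran from 0.100 to 0.667 over the alternative settings.

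Within row 1 of the slide the difference in Sik1 was -0.47 and within row 2 it was -0.30. With the slide row as a block, an alternative chosen after seeing the data, its SE narrowed to 0.06 and its adjusted p was 0.100. With normexp background correction the difference was -0.25. Of 18 tested immediate early genes, which neuronal activity induces, 16 stood below 0 with a median of -0.15 and none had an unadjusted p under 0.05. Their mean level ranged from 0.47 to 0.91 in Ts1Cje arrays. It was 1.15 in wild-type replicate 1 and 0.47 to 0.90 on the other wild-type arrays. The difference in this mean was -0.20 within slide row 1 and -0.04 within row 2. The part of these genes in the value of Sik1 was not tested. The paralogs of Sik1 differed less, with Sik2 at 0.0061 (SE 0.13) and Sik3 at -0.05 (SE 0.06), and the CRTC genes Crtc1, Crtc2 and Crtc3 stood between -0.02 and -0.01.

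Pknox1 encodes a TALE homeodomain partner of PBX proteins. It stood at -0.68, -0.38, -0.50 and -0.44 in Ts1Cje replicates 1 to 4, against -0.74, -0.60, -0.76 and -0.58 in wild-type replicates 1 to 4. Of the Ts1Cje arrays, 3 lay above every wild-type array, and Ts1Cje replicate 1 lay within the wild-type range. The difference was 0.17 (SE 0.08, limma adjusted p = 0.59), its second probe gave -0.10 (SE 0.09), and the mean over its probes gave 0.03. Prmt2, a protein arginine methyltransferase gene, stood at -0.11 (SE 0.05, adjusted p = 0.62) and Dnmt3l, the catalytically inactive partner of the de novo DNA methyltransferases, at -0.09 (SE 0.11). Of 27 tested partners and paralogs of this group, none passed, 7 stood above 0 and 20 below. The one with an unadjusted p under 0.05 was Dnmt3b, a de novo DNA methyltransferase gene, at -0.29 (SE 0.09, adjusted p = 0.40).

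Umodl1 had the highest value of all 37 members. It encodes a uromodulin-like membrane protein. It stood at -2.32, -2.48, -2.44 and -1.99 in Ts1Cje replicates 1 to 4, against -2.93, -2.81, -2.61 and -2.53 in wild-type replicates 1 to 4. The groups did not overlap, though the gap between them was narrow. The difference was 1.33-fold (log2 0.41, SE 0.13, 95% interval 0.11 to 0.71, limma adjusted p = 0.43), 0.47 within slide row 1 and 0.36 within row 2. With normexp background correction it was 0.25.

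S100b encodes a calcium-binding protein that is abundant in astrocytes. It stood at 5.26, 5.37, 5.36 and 5.49 in Ts1Cje replicates 1 to 4, against 5.28, 5.24, 5.15 and 5.21 in wild-type replicates 1 to 4. Of the Ts1Cje arrays, 3 lay above every wild-type array, and Ts1Cje replicate 1 lay within the wild-type range. The difference was 1.11-fold (log2 0.15, SE 0.06, 95% interval 0.01 to 0.29, limma adjusted p = 0.55). It was 0.05 within slide row 1 and 0.25 within row 2, and with the array median as the centre it was 0.10.

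Most astrocyte markers stood below 0. Of 13 tested, 11 stood below 0 with a median of -0.07, and their mean level ranged from 2.74 to 2.90 in Ts1Cje arrays and from 2.87 to 3.09 in wild-type arrays. Gpc5, a glypican gene, stood at -0.28 (SE 0.09, limma adjusted p = 0.44) and the gap junction gene Gja1 at -0.31 (SE 0.11, adjusted p = 0.49). Among other S100 genes, S100a1 stood at 0.13 (SE 0.05, adjusted p = 0.57) and S100a10 at -0.22 (SE 0.06, adjusted p = 0.33), and neither overlapped between groups. The remaining membrane and secreted proteins lay near 0, with Pttg1ip at 0.04 (SE 0.04), Lrrc3 at -0.01 (SE 0.17) and Tmprss3 at -0.00084 (SE 0.05).

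**Figure D3:**
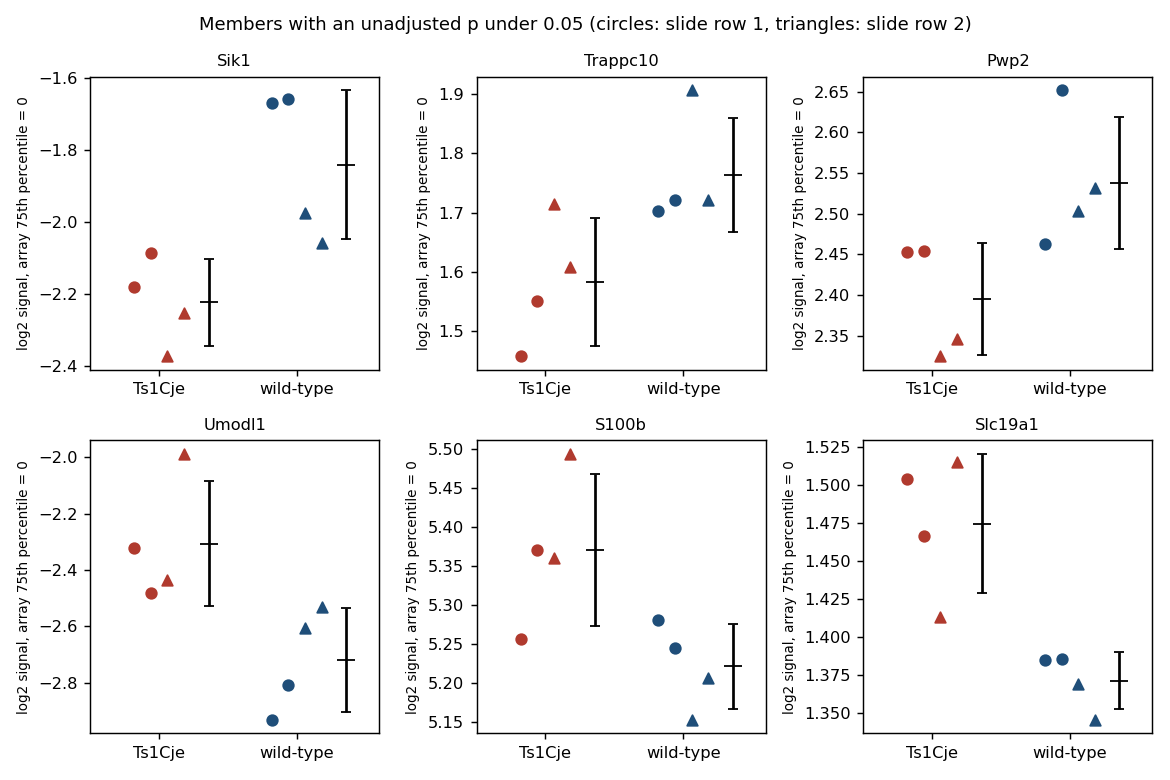
Level (log2 signal, array 75th percentile at 0, each panel with its own range) on every array for the 6 members with an unadjusted p under 0.05, Ts1Cje left and wild-type right, with mean and SD (n = 4 each). Circles are slide row 1 and triangles row 2; Sik1, Trappc10 and Pwp2 are lower and Umodl1, S100b and Slc19a1 higher in Ts1Cje, and the groups overlap for Trappc10 and S100b.

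Among genes of cell structure and traffic, Trappc10 had the lowest value but one of the chromosome 10 block. It encodes a subunit specific to the TRAPPII complex, which acts in vesicle traffic through the Golgi. It stood at 1.46, 1.55, 1.71 and 1.61 in Ts1Cje replicates 1 to 4, against 1.70, 1.72, 1.91 and 1.72 in wild-type replicates 1 to 4. Only Ts1Cje replicate 3 reached into the wild-type range. The difference was 0.88-fold (log2 -0.18, SE 0.07, 95% interval -0.35 to -0.01, limma adjusted p = 0.55), -0.21 within slide row 1 and -0.15 within row 2. Other TRAPP subunits stood near 0, with Trappc9, the other TRAPPII-specific subunit, at 0.04 (SE 0.05) and Trappc13 at -0.04 (SE 0.06).

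The other genes of this group were Pcnt, which encodes the centrosome scaffold pericentrin, at -0.02 (SE 0.11), Dip2a at -0.04 (SE 0.06) and Cryaa. Cryaa stood at -3.37, -3.28, -3.06 and -3.42 in Ts1Cje replicates 1 to 4, against -3.14, -3.39, -2.96 and -3.22 in wild-type replicates 1 to 4. The groups overlapped (difference -0.10, SE 0.11, limma adjusted p = 0.79). Of 16 tested partners and paralogs, none passed and none had an unadjusted p under 0.05.

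Genes of RNA processing and the nucleolus lay on both sides of 0, with 4 of 7 above and 3 below. Pwp2, a component of the small-subunit processome that assembles ribosomes, stood at 2.45, 2.45, 2.32 and 2.35 in Ts1Cje replicates 1 to 4, against 2.46, 2.65, 2.50 and 2.53 in wild-type replicates 1 to 4. The groups did not overlap, though Ts1Cje replicate 2 and wild-type replicate 1 nearly met. The difference was 0.91-fold (log2 -0.14, SE 0.06, 95% interval -0.28 to -0.01, limma adjusted p = 0.56). Pwp2's partners in the same subcomplex did not share a direction: Tbl3 stood at -0.04 (SE 0.04), Wdr3 at -0.02 (SE 0.05), Wdr36 at -0.0010 (SE 0.05), Utp18 at -0.11 (SE 0.18) and Utp6 at 0.12 (SE 0.06).

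Wdr4 encodes the non-catalytic partner of METTL1 in tRNA methylation. It stood at 1.41, 1.56, 1.39 and 1.67 in Ts1Cje replicates 1 to 4, against 1.44, 1.42, 1.30 and 1.41 in wild-type replicates 1 to 4. Ts1Cje replicates 2 and 4 lay above every wild-type array, and replicates 1 and 3 within the wild-type range. The difference was 0.12 (SE 0.07, limma adjusted p = 0.67), or 0.06 without Ts1Cje replicate 4, and Mettl1 itself stood at 0.21 (SE 0.08, adjusted p = 0.49). Adarb1, which encodes the enzyme that recodes glutamate receptor transcripts by adenosine-to-inosine editing, stood at 0.05 (SE 0.06, 95% interval -0.09 to 0.18). U2af1, the small subunit of the splicing factor that reads the end of an intron, stood at -0.05 (SE 0.05), and its partner U2af2 at -0.14 (SE 0.06, adjusted p = 0.57). Mcm3ap, a scaffold of mRNA export, stood at -0.08 (SE 0.11), Rrp1 at 0.09 (SE 0.07) and Rrp1b at 0.04 (SE 0.08).

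Among metabolic enzymes and transporters, 5 of 8 tested members stood above 0 and 3 below. Slc19a1, the reduced folate carrier, stood at 1.504, 1.47, 1.41 and 1.52 in Ts1Cje replicates 1 to 4, against 1.38, 1.39, 1.37 and 1.35 in wild-type replicates 1 to 4. The groups did not overlap. The difference was 1.07-fold (log2 0.10, SE 0.04, 95% interval 0.0036 to 0.20, limma adjusted p = 0.57), 0.10 within slide row 1 and 0.11 within row 2, and it was 0.05 with the array median as the centre. Its second probe gave 0.04 (SE 0.12).

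Among other genes of folate handling, the proton-coupled folate transporter gene Slc46a1 stood at 0.07 (SE 0.07) and Fpgs, folylpolyglutamate synthase, at 0.0090 (SE 0.07). Abcg1, a cholesterol exporter, stood at 3.01, 2.73, 2.79 and 2.76 in Ts1Cje replicates 1 to 4, against 2.93, 2.79, 2.96 and 2.82 in wild-type replicates 1 to 4. The groups overlapped (difference -0.06, SE 0.07, adjusted p = 0.83), and with 1 array left out the difference ranged from -0.12 to -0.03. Pde9a, a phosphodiesterase specific for cyclic GMP, stood at 0.11 (SE 0.07), Agpat3, a lysophosphatidic acid acyltransferase, at 0.10 (SE 0.08), and Pdxk, the kinase that activates vitamin B6, at 0.04 (SE 0.05). Pfkl, the liver-type phosphofructokinase, stood at -0.06 (SE 0.05), Slc37a1, a sugar-phosphate antiporter, at 0.05 (SE 0.04), and the O-fucosyltransferase gene Pofut2 at -0.05 (SE 0.07). Of 26 tested partners and paralogs, none passed.

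The 3 members of the ubiquitin, SUMO and proteolysis group stood below 0. Sumo3, a small ubiquitin-like modifier, stood at 2.16, 2.02, 2.06 and 1.97 in Ts1Cje replicates 1 to 4, against 2.27, 2.00, 2.41 and 2.21 in wild-type replicates 1 to 4. Of the wild-type arrays, 3 lay above every Ts1Cje array, and wild-type replicate 2 lay within the Ts1Cje range. The difference was -0.17 (SE 0.09, limma adjusted p = 0.63), -0.04 within slide row 1 and -0.30 within row 2, and the second probe of Sumo3 gave -0.01 (SE 0.06). Ube2g2, a ubiquitin-conjugating enzyme of endoplasmic reticulum degradation, stood at -0.15 (SE 0.07, adjusted p = 0.58), or -0.09 (SE 0.06) on its second probe. Cstb stood at -0.03 (SE 0.05, 95% interval -0.14 to 0.09). Of 14 tested partners, 4 stood above 0 and 10 below and none had an unadjusted p under 0.05. Sumo2 stood at -0.09 (SE 0.05).

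None of the 3 collagen genes passed the test, and their arrays overlapped between genotypes. Col6a2, a chain of collagen VI, stood at -2.91, -2.46, -2.56 and -2.70 in Ts1Cje replicates 1 to 4, against -2.12, -3.07, -2.02 and -2.59 in wild-type replicates 1 to 4. The wild-type range enclosed the Ts1Cje range, and the difference was -0.21 (SE 0.23, limma adjusted p = 0.80), or between -0.41 and -0.06 with 1 array left out. Col6a1 stood at -0.02 (SE 0.12) and Col18a1, whose product carries endostatin, at -0.03 (SE 0.18). Col6a3, a further collagen VI chain on the partner list, stood at -0.18 (SE 0.11).

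Markers of mural cells, fibroblasts and meninges were measured on the same arrays. Their mean over 17 tested genes ranged from 0.31 to 0.67 in Ts1Cje arrays and from 0.08 to 0.83 in wild-type arrays, with a median difference of -0.03, 7 above 0 and 10 below. Wild-type replicate 2 was the lowest of all 8 arrays for these markers and for Col6a2, and Ts1Cje replicate 1 the lowest Ts1Cje array for both. Col6a1 was lowest on wild-type replicate 4 (0.54) and stood at 0.87 in wild-type replicate 2. Col18a1 was lowest on Ts1Cje replicate 1 (-1.47) and, among wild-type arrays, on replicate 2 (-1.24). The part of these markers in the collagen values was not tested. Of 7 tested partners of the matrix genes, 5 stood above 0 and 2 below. Those with an unadjusted p under 0.05 were the basement membrane genes Col4a1 at 0.35 (SE 0.08, limma adjusted p = 0.22) and Col4a2 at 0.37 (SE 0.08, adjusted p = 0.23), neither overlapping between groups, and the perlecan gene Hspg2 at 0.17 (SE 0.06, adjusted p = 0.49). The laminin genes Lamb1 and Lamc1 stood at 0.02 (SE 0.05) and 0.08 (SE 0.10) and the nidogen gene Nid1 at -0.08 (SE 0.12), and none of the 7 passed. Of 12 tested endothelial markers, 8 stood above 0 with a median of 0.10. Their mean level was 1.63 in Ts1Cje replicate 1 and 1.32 to 1.42 on the other Ts1Cje arrays. In wild-type arrays it ranged from 1.24 to 1.39. The difference in this mean was 0.18 within slide row 1 and 0.03 within row 2. Ts1Cje replicate 1 was the lowest Ts1Cje array for Col4a1 (0.31), Col4a2 (0.71) and Hspg2 (-1.42). The part of the endothelial markers in the values of the basement membrane genes was not tested.

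Of the leukocyte genes of the blocks, 3 were tested and none passed. Itgb2, the beta chain shared by the leukocyte integrins, stood at -1.46, -1.94, -1.89 and -2.00 in Ts1Cje replicates 1 to 4, against -1.91, -2.04, -1.80 and -2.03 in wild-type replicates 1 to 4. Ts1Cje replicate 1 was above the other 7 arrays, which overlapped. The difference was 0.12 (SE 0.12, limma adjusted p = 0.78) with all arrays and -0.00031 without Ts1Cje replicate 1. The mean of 18 tested markers of microglia and other myeloid cells was 2.18 on that array and 1.39 to 1.41 on the other Ts1Cje arrays, against 1.40 to 1.63 in wild-type arrays. Without the neutrophil genes S100a8 and S100a9, the mean of the other 16 was 2.21 on that array and 1.99 to 2.13 on the other Ts1Cje arrays, against 2.03 to 2.12 in wild-type arrays.

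S100a8 and S100a9 themselves stood high on the same array. S100a8 stood at 1.35 in Ts1Cje replicate 1 and between -5.17 and -4.33 on the other Ts1Cje arrays, against -4.46 to -3.28 in wild-type arrays. S100a9 stood at 2.43 in Ts1Cje replicate 1 and between -3.44 and -2.44 on the other Ts1Cje arrays, against -2.88 to -1.40 in wild-type arrays. Of the other 16 markers, 7 were higher on Ts1Cje replicate 1 than on any other array and 4 were lower.

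Trpm2, a cation channel gated by ADP-ribose and expressed in microglia and neurons, stood at 0.07 (SE 0.08). Icosl, the ligand of the T-cell co-stimulator ICOS, stood at 0.09 (SE 0.19, 95% interval -0.35 to 0.53), and its partner gene Icos was not tested because no probe passed the filter. Of 9 tested partners of the leukocyte genes, none passed and none had an unadjusted p under 0.05. Of the integrin alpha chains that pair with Itgb2, Itgam stood at 0.01 (SE 0.09) and Itgal at -0.88 (SE 0.57), or -0.33 without wild-type replicate 1.

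**Figure D4:**
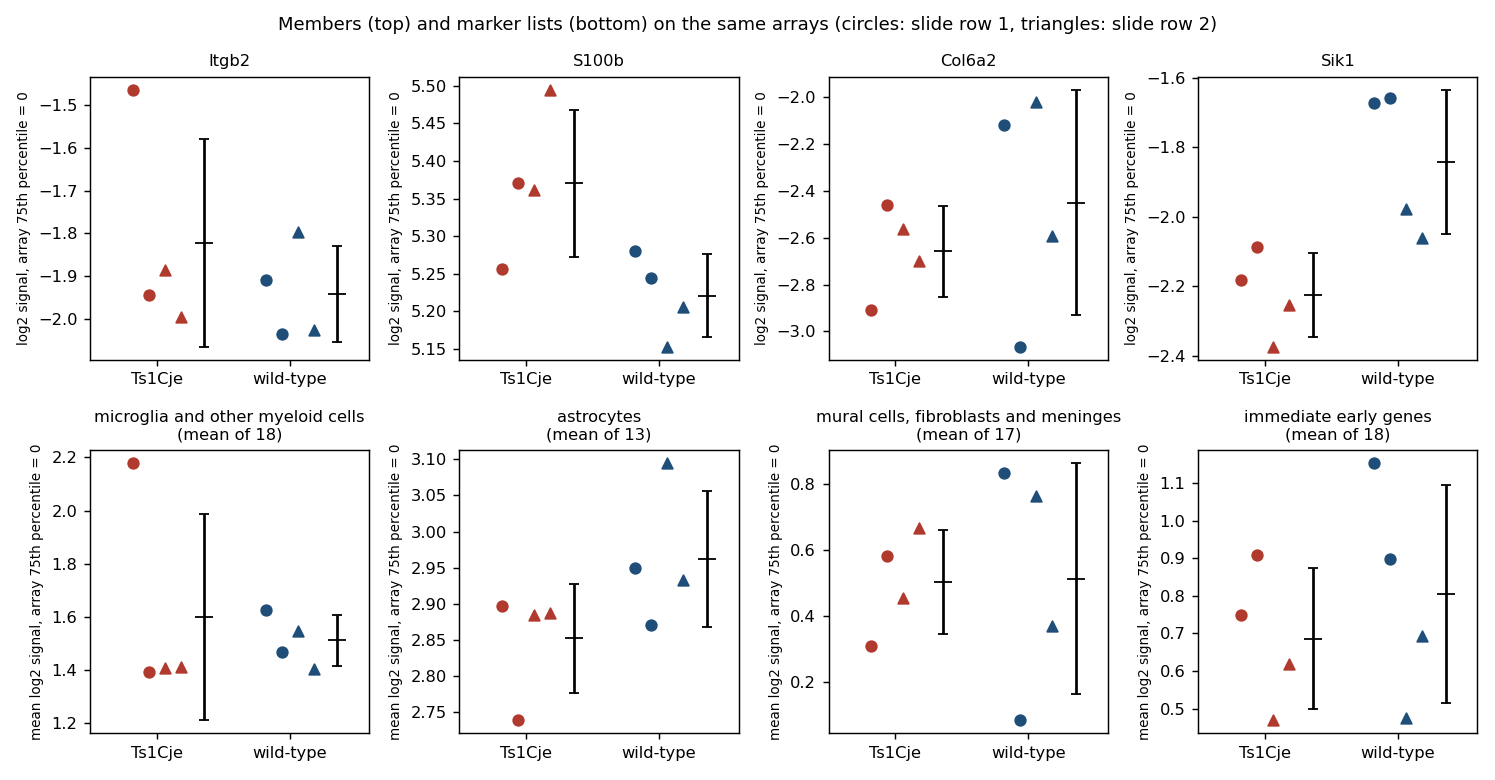
Level (log2 signal, array 75th percentile at 0, each panel with its own range) of 4 members (top) and mean level of the marker list named below each (bottom) on every array, Ts1Cje left and wild-type right, with mean and SD (n = 4 each). Circles are slide row 1 and triangles row 2. Ts1Cje replicate 1 is the highest array for Itgb2 and for the myeloid markers (2.18, other Ts1Cje arrays 1.39 to 1.41). Without S100a8 and S100a9 the myeloid mean is 2.21 there and 1.99 to 2.13 on the other Ts1Cje arrays. Wild-type replicate 2 is the lowest for Col6a2 and for the mural and fibroblast markers. The highest array is Ts1Cje replicate 4 for S100b and wild-type replicate 3 for the astrocyte markers.

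Of the tested members, 8 were measured by more than 1 kept probe, which gave a check within each array. The kept probes of Slc19a1, Sumo3, Ube2g2, U2af1 and Pdxk had the same sign in each gene. The probes of Rrp1 had opposite signs, 0.09 (SE 0.07) on the brighter and -0.11 (SE 0.08) on the other. Those of Pknox1, given above, and of Col18a1, at -0.03 and 0.0041, were also of opposite sign.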

How the data were processed

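Total RNA of hippocampus from 4 Ts1Cje and 4 wild-type mice was hybridised to Agilent one-colour arrays. The intensity values deposited by the authors are Agilent Feature Extraction 10.10.1.1 output, background-subtracted and detrended per the file headers. From these, log2 of the processed signal minus each array's 75th percentile was computed over 55681 non-control probes, leaving out outlier spots. No spot was saturated. A probe was kept where either genotype had it well above background in 4 of 4 arrays (32591 probes), and a gene was represented by its brightest kept probe, giving 24022 features. Accessions matched a RefSeq gene table (GRCm38.p6) for 27235 probes.

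Genotypes were compared with limma 3.58.1 (lmFit, eBayes) in R 4.3.3 over all features, without a block, and p-values were adjusted by the Benjamini-Hochberg method at 0.05. Every p-value rests on the spread between labelled replicates, which eBayes draws toward a common value estimated over all features. Array number limits the precision, with 4 per group. Members and lists were chosen with earlier results of these data known. Every array's value is given for members with an unadjusted p under 0.05, members whose groups did not overlap, and the 3 highest and 3 lowest per block, 13 in all. Partners were named where the unadjusted p was under 0.05 or as paralogs of such members. Some genes that meet this rule are not reported here. Other partners, and the markers Gpc5, Gja1, S100a8 and S100a9, were named after their values were seen. Same-numbered arrays had deviation correlations of 0.237, 0.194, 0.106 and 0.0501, and differently numbered arrays -0.258 to 0.141. The design text of the series speaks of pairs, but the labels do not say that a number marks a litter. For that reason numbers were not taken as pairs. Alternatives covered background correction (normexp, offset 50), normalization, filter, probe averaging, prior, array weights, threshold, a replicate block, a slide-row block (added after seeing the data) and leaving out each array. The fit was also tested on simulated data with independent noise on each array. That test cannot judge effects shared by arrays of a slide row or a replicate number.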

Additional observations from a re-analysis of the deposited data

Results flagged for a closer look

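The highest or lowest of the 4 arrays of a group stood far from the other 3 by Dixon's criterion in 8 of 94 groups of values examined, where chance alone flags about 1 in 20. In Ts1Cje arrays, Ube2g2 stood at 2.89 in replicate 1 (2.80 to 2.81 in the others), Agpat3 at 3.66 in replicate 1 (3.41 to 3.45) and Rrp1 at 6.05 in replicate 4 (5.91 to 5.93). In wild-type arrays, Col6a1 stood at 0.54 in replicate 4 (0.86 to 0.92 in the others), Trappc10 at 1.91 in replicate 3 (1.70 to 1.72) and U2af1 at 3.67 in replicate 4 (3.71 to 3.72).

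Among the marker lists, the mean of the microglia and other myeloid markers was 2.18 in Ts1Cje replicate 1, against 1.39 to 1.41 on the other Ts1Cje arrays. Without S100a8 and S100a9 it was 2.21, against 1.99 to 2.13 on the other Ts1Cje arrays. The mean of the astrocyte markers was 2.74 in Ts1Cje replicate 2, against 2.88 to 2.90 on the other Ts1Cje arrays.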

How the results depend on the processing

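The number of members past the threshold was 0 under every alternative run, leaving out each array and the threshold of 0.10 included. Of the named members' values, Itgb2 alone changed sign, to -0.00031 without Ts1Cje replicate 1, in a range up to 0.18 with 1 array left out. The median of the chromosome 17 block was 0.04 as reported, 0.0053 with normexp, 0.017 with quantile normalization, -0.0087 with the array median as centre, 0.075 with no filter on dim probes, 0.018 with array weights, and 0.0027 to 0.052 with 1 array left out. The median of the chromosome 10 block was -0.075 with the array median as centre and -0.04 to -0.00035 with 1 array left out. The chromosome 16 median was 0.44 with the array median as centre, 0.52 with the mean over probes, and 0.49 to 0.51 with 1 array left out. Of these chromosome 16 genes, 26 were past the threshold as reported, 14 with the array median as centre, 14 with no filter, and 7 to 24 with 1 array left out. Features past the threshold numbered 47 as reported (42 higher, 5 lower in Ts1Cje), 25 with the array median as centre, 23 with no filter, 71 with a trended and robust prior, 89 with array weights, 98 at a threshold of 0.10, and 13 to 44 with 1 array left out. Leaving out a Ts1Cje array gave 19 for replicate 2, 25 for replicate 3 and 13 for replicate 4, and leaving out a wild-type array gave 28 for replicate 2 and 24 for replicate 4. Quantile normalization gave 47 higher and 13 lower. The cause of these changes was not tested.

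With the replicate number as a block, 1 feature passed the threshold in all, and 0 of the members and 0 of the chromosome 16 genes did. In that fit 6 members had an unadjusted p under 0.05. Their lowest adjusted p (limma) was 0.231, for Sik1 at -0.38 (SE 0.07). The correlations of same-numbered arrays were 0.237, 0.194, 0.106 and 0.0501, and those of differently numbered arrays ran from -0.258 to 0.141. The design text of the series speaks of pairs. The numbers were not taken as pairs because the labels do not tie a number to a litter. Whether they mark pairs was not tested. With the slide row as a block, an alternative chosen after seeing the data, 45 features passed. The chromosome 16 counts, the values of Itgal and the myeloid mean without S100a8 and S100a9 were also added after seeing the data. Naming probes by the gene names of the array design was not run. Signal over background limits what could be measured: 5 members had no probe that passed the filter.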

Other observations

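Icosl had arrays that did not overlap between the rows of the slide, though its row difference did not pass the threshold. It stood at 1.06, 0.84, 0.48 and 0.46 in Ts1Cje replicates 1 to 4, against 1.05, 0.69, 0.33 and 0.40 in wild-type replicates 1 to 4. In both genotypes the arrays of slide row 1 (0.69 to 1.06) lay above those of row 2 (0.33 to 0.48), and row 2 minus row 1 was -0.49 (SE 0.09, limma adjusted p = 0.483). The genotype difference of 0.09 had an SE of 0.19 without a block and 0.09 with the slide row as a block. The rows also did not overlap for Cstb and Rrp1b. In all, the rows did not overlap for 3 of 37 members and for 4.53% of all features, and no feature passed the threshold for row. Row 1 held replicates 1 and 2 and row 2 held replicates 3 and 4, so row and replicate number cannot be told apart.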
